A study of Sus scrofa with 2 samples.

Results

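miR-122, miR-192, miR-194 and miR-215 are microRNAs best known from liver, kidney and intestine, and their reads were followed here in pig testis before and after sexual maturity. The labels describe whole testis tissue, name the animals as boars of the white Chinese breed Junmu-1, and give no treatment. The RNA of 3 boars aged 30 days (sexually immature) was pooled into 1 library and that of 3 boars aged 180 days (sexually mature) into another. Each age therefore has 1 library, no difference has a replicate check, no p-value is given, and all intervals are exact 95% intervals that cover counting error only. Members were all sequence tags that the deposited lists name miR-122, miR-192, miR-194 or miR-215, on either arm and with any species prefix. They made up 5 of the 1384 names and arms listed: the main form of each of the 4 miRNAs, and the star (minor) arm of miR-122. They held 1009 reads in 87 tags at 30 days and 1048 reads in 117 tags at 180 days, and 40 of the 164 distinct tag sequences occurred in both lists.

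A microRNA guides the silencing complex to messenger RNAs mainly through its seed, bases 2 to 8. miR-122 is the leading microRNA of hepatocytes, where it acts on lipid metabolism, and it has also been described in postmeiotic male germ cells of the mouse. miR-192, miR-194 and miR-215 are abundant in the epithelium of gut and kidney, and mammals carry them in a pair of clusters, one with miR-192 and miR-194 and one with miR-215 and miR-194. In the RefSeq annotation of the pig assembly Sscrofa11.1, MIR192 and MIR194A are neighbours between ATG2A and EHD1, and MIR215 and MIR194B are neighbours within IARS2. MIR122 lies between ALPK2 and NEDD4L. The 4 names thus match 5 annotated pig genes. The lists do not assign reads to genes, so a miR-194 read may come from either MIR194A or MIR194B.

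The sequences below are the most read miR-122 tag and, for each other member, an entry to which the authors matched tags, printed with T for U as deposited and with the seed in capitals. They are shown because miR-192 and miR-215 share their seed and differ by 2 of 21 bases, C1A and C20A (the miR-192 base, its position from the 5′ end, the miR-215 base), so that the bases at both ends decide which of them a read is counted for.
miR-122, most read tag: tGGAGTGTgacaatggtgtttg
miR-192, human entry: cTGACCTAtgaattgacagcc
miR-194, mouse entry: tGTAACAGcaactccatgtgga
miR-215, human entry: aTGACCTAtgaattgacagac

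The 30-day list held 7525725 miRNA-matched reads and the 180-day list 852209. Levels are given in RPM, reads per 1000000 miRNA-matched reads, on which 3 reads are 0.399 RPM at 30 days and 3.52 RPM at 180 days. The tag numbers follow falling counts, and if they are ranks over all tags of a library, the miRNA-matched reads are 59.2% of the 30-day library and 7.08% of the 180-day library at the lowest totals these ranks allow. Ratios per read of the whole library are then shifted by -3.06 on the log2 scale, and both kinds of ratio are given below for the members. The testis label was checked on miR-202, a gonadal miRNA, whose arms summed to 68481 RPM in the immature and 110872 RPM in the mature library. miR-34b/c and miR-449, known from meiotic and later germ cells, summed to 11.7 and 35280 RPM.

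miR-192, miR-122 and miR-194 took a larger share of the miRNA pool in the 180-day library, and miR-215 could not be told apart between the libraries. miR-192 was the most abundant member at both ages, with 802 reads (107 RPM, 99.3 to 114) at 30 days and 848 reads (995 RPM, 929 to 1064) at 180 days, and it moved from rank 150 of 1183 names detected to rank 75 of 904. The raw counts were thus close, in libraries whose miRNA-matched totals differ widely. Its ratio of the 180-day to the 30-day RPM was 9.34 (8.47 to 10.3).

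For miR-122 the 30-day library held 160 reads (21.3 RPM, 18.1 to 24.8) and the 180-day library 185 reads (217 RPM, 187 to 251), which gives a ratio of 10.2 (8.22 to 12.7). Its rank moved from 267 to 130. The intervals of the ratios of miR-122 and miR-192 overlap, and no interval of either level overlaps between the libraries.

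miR-194 was scarce, with 12 reads (1.59 RPM, 0.824 to 2.79) at 30 days and 9 reads (10.6 RPM, 4.83 to 20.05) at 180 days. Its ratio was 6.62, with a wide interval of 2.46 to 17.1. The level intervals do not overlap, but the value rests on 21 reads in all, just above the minimum of 20 reads over both libraries that was required for a ratio.

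miR-215 had 35 reads (4.65 RPM, 3.24 to 6.47) at 30 days and 5 reads (5.87 RPM, 1.91 to 13.7) at 180 days, and its level intervals overlap. The ratio of 1.26 (0.386 to 3.23) allows values on either side of 1. The star arm of miR-122 (miR-122*) had 1 read, at 180 days, and none at 30 days, below 3 reads in both libraries, and no fold is given. Minor arms of miR-192, miR-194 and miR-215 were not listed.

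**Figure D1:**
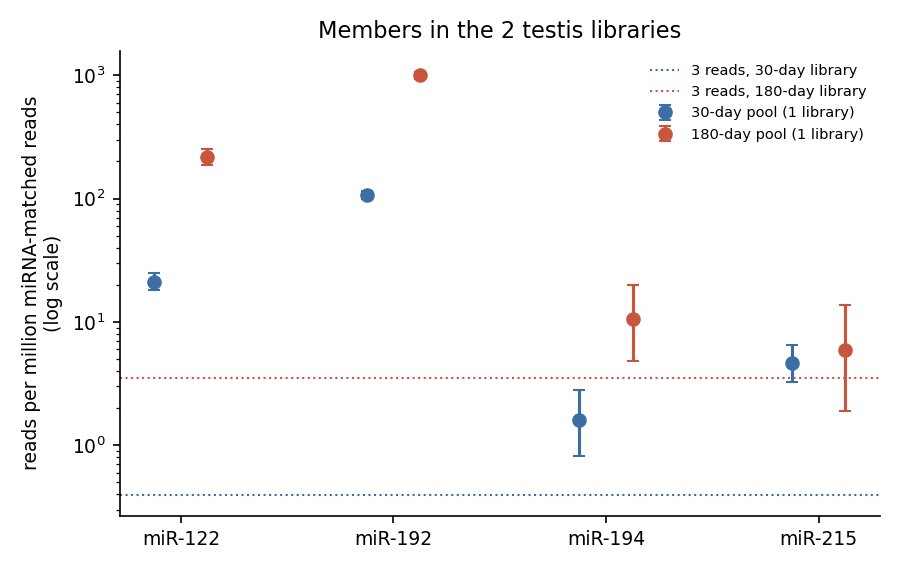
Level of each member in the 30-day and the 180-day library, in RPM on a log axis; bars are exact Poisson 95% intervals of the read count and dotted lines the level of 3 reads in each library. miR-122, miR-192 and miR-194 are higher in the 180-day library with intervals that do not overlap, and the intervals of miR-215 overlap.

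A ratio was called higher or lower when it was at least 2-fold with an interval excluding 1. Of the 5 names and arms, 4 passed the minimum of 20 reads; 3 of these were called higher (miR-122, miR-192, miR-194), 0 lower and 1 neither (miR-215). Over all 470 names and arms that passed, 29.6% were called higher and 12.1% lower, and the median ratio was 1.17, so calls were common and the number of members called says little by itself. By size, the ratio of miR-122 ranked 33rd of the 470, that of miR-192 34th and that of miR-194 42nd, while that of miR-215 ranked 219th.

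Other scalings moved these values. With edgeR's TMM factors all ratios shifted by -0.91 on the log2 scale, 73 of the 470 names and arms were higher and 161 lower, and miR-122 (5.43), miR-192 (4.96) and miR-194 (3.52) were still called higher. The uncalled ratio of miR-215 was then below 1, at 0.671 (0.205 to 1.72). Per read of the whole library, at the lowest totals, none of the 3 calls held. miR-192 then had a ratio of 1.12 (1.01 to 1.23), miR-122 of 1.22 (0.983 to 1.52) and miR-194 of 0.792 (0.295 to 2.05). miR-215 was 6.63-fold lower on that scale (2.59 to 21.7). On it 5.74% of the 470 names and arms were called higher and 84.3% lower, so miR-122, miR-192 and miR-194 were outside the called majority and miR-215 was within it. Which scale describes the amount per cell was not tested, and in whole tissue fewer cells of a type and less RNA per cell cannot be told apart.

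**Figure D2:**
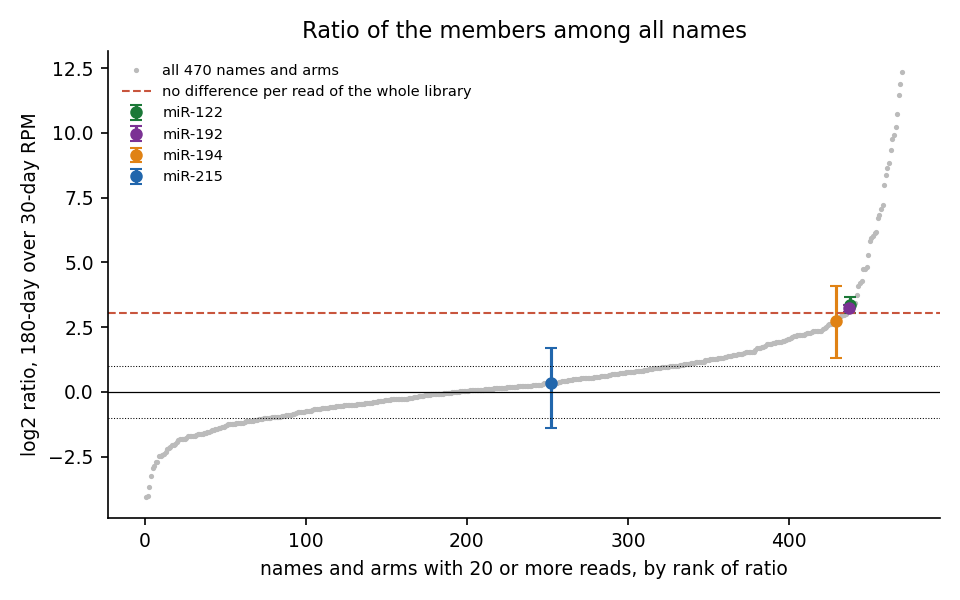
Log2 ratio of the 180-day to the 30-day RPM for all 470 names and arms with 20 or more reads, in order of the ratio, with the 4 members in colour and their exact 95% intervals; dotted lines mark 2-fold and the dashed line marks no difference per read of the whole library. miR-122 and miR-192 lie just above the dashed line and miR-194 below it, the intervals of miR-122 and miR-194 cross it, and miR-215 lies near the middle of all names.

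Ratios between members within a library do not depend on the scaling. Of the reads named miR-192 or miR-215, miR-215 held 4.18% at 30 days (35 of 837, 2.93 to 5.77%) and 0.586% at 180 days (5 of 853, 0.191 to 1.36%). These intervals do not overlap. For each miR-215 read the 30-day library held 22.9 of miR-192 (16.3 to 33.1) and the 180-day library 169.6 (72.4 to 524), a value that rests on 5 reads of miR-215. Without tags of 1 read it was 397, with 2 reads of miR-215, and the miR-215 shares were 3.86% (2.63 to 5.43%) and 0.251% (0.0304 to 0.905%).

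Most tags carried the bases that tell the miRNAs apart. Both miR-192 bases, at positions 1 and 20, were present in 83.3% of the miR-192 reads at 30 days (668 of 802) and in 89.5% at 180 days (759 of 848). Counting also reads that lack 1 of these positions, 99.6% and 99.9% carried bases of miR-192 and none of miR-215. Since these bases decide the name of a read, such shares are largely set by the naming and are no separate check of it. Both miR-215 bases were present in 32 of its 35 reads at 30 days and in 4 of its 5 at 180 days, and the remaining 180-day read had 1 base of each. A tag that lacks position 1 and is named miR-192, with 30 and 14 reads, scores equally for both miRNAs. It carries the miR-192 base at position 20. The tie arises because its mismatch to miR-215 is offset by the longer miR-192 entry, which leaves more bases unmatched. The reads of this tag were split between miR-192 and miR-215 in an alternative chosen after the data were seen. miR-215 then held 5.97% at 30 days (4.47 to 7.80%) and 1.41% at 180 days (0.729 to 2.44%). There were 15.7 and 70.1 reads of miR-192 for each of miR-215. The shares are apart between the libraries in all 3 ways of counting.

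miR-122 gained on miR-215 in the same way, with 4.57 times its reads in the immature library (3.15 to 6.79) and 37.0 times in the mature one (15.6 to 115), intervals that are apart. Among miR-122, miR-192 and miR-194 the intervals of every pair overlapped between the libraries. miR-192 had 5.01 times the reads of miR-122 in the immature library (4.23 to 5.98) and 4.58 times in the mature one (3.91 to 5.40). It had 66.8 times the reads of miR-194 in the immature library (38.0 to 129.9) and 94.2 times in the mature one (49.4 to 207), and miR-122 had 13.3 times (7.42 to 26.3) and 20.6 times (10.6 to 45.7) the reads of miR-194. miR-194 had 0.343 times the reads of miR-215 in the immature library (0.162 to 0.676) and 1.80 times in the mature one (0.542 to 6.84), where these intervals overlap only narrowly. The order of levels was therefore miR-192, miR-122, miR-215, miR-194 at 30 days, each step beyond counting error, and miR-192, miR-122, miR-194, miR-215 at 180 days, where the last 2 do not differ beyond counting error.

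miR-192 had more than 1 form. The 2 leading tags ended 1 base apart, and the first of them held 40.4% of its reads in the immature library (37.0 to 43.9%) and 40.9% in the mature one (37.6 to 44.3%). They are shown with a tag that has G23T against the longer bovine entry, and with the tag most read at 30 days among those that start 1 base later and so has another seed. This last tag was chosen after its values were seen. The seed is in capitals.
miR-192, ending at position 21: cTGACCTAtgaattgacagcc
miR-192, ending at position 22: cTGACCTAtgaattgacagcca
miR-192, T after position 22: cTGACCTAtgaattgacagccat
miR-192, starting 1 base later: tGACCTATgaattgacagcca

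The first of these tags was read 324 times in the 30-day library and 347 times in the 180-day library, a ratio in RPM of 9.46 (8.11 to 11.04). The second had 186 and 205 reads, a ratio of 9.73 (7.94 to 11.9), so both leading tags had nearly the ratio of the whole miRNA. The tag with the added T had 38 and 61 reads, a ratio of 14.2 (9.30 to 21.8). A tag that ends 1 base earlier, at position 20, had 47 and 39 reads (ratio 7.33, 4.67 to 11.4). The tag that starts later had 30 and 14 reads (ratio 4.12, 2.02 to 8.01), and it is the tag that scores equally for miR-215. At 180 days a longer tag with the later start led these, with 25 reads at 30 days and 22 at 180 days (ratio 7.77, 4.18 to 14.4). It is shown for that reason.
miR-192, starting 1 base later, longer: tGACCTATgaattgacagccagt

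Starts 1 base later made up 126 of the 802 miR-192 reads in the immature library (15.7%, 13.3 to 18.4%) and 84 of 848 in the mature one (9.91%, 7.98 to 12.1%), and these intervals do not overlap. Such a start was uncommon elsewhere. Over the 163 names and arms with 100 or more reads in each library the median share was 1.17% at 30 days and 1.09% at 180 days, and 7 and 13 of them exceeded miR-192. It was lower in the 180-day library in 101 of these 163 names. In miR-122 the share was 1.25% (0.152 to 4.44%) and 1.08% (0.131 to 3.85%), and in miR-215 1 of 35 reads and 0 of 5.

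The later start of miR-192 went with a later end. Of the reads with the leading start, 0.149% at 30 days (1 of 671, 0.00377 to 0.828%) and 1.44% at 180 days (11 of 762, 0.723 to 2.57%) reached position 23 of the bovine entry. Of the reads that start 1 base later, 46.8% at 30 days (59 of 126, 37.9 to 55.9%) and 50.0% at 180 days (42 of 84, 38.9 to 61.1%) did so. The contrast was present in both libraries, far beyond counting error, and 1 or more further bases followed in part of these reads.

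Longer tags of miR-192 were more common in the 180-day library. Reads of 24 nucleotides or more went from 0.374% (3 of 802, 0.0772 to 1.09%) to 4.60% (39 of 848, 3.29 to 6.23%). Reads with T directly after position 22 went from 5.86% (47 reads, 4.34 to 7.72%) to 10.4% (88 reads, 8.41 to 12.6%). Both pairs of intervals are apart. The share of 24 nucleotides or more was higher at 180 days in 122 of the 163 names above, with a median of 1.18% at 30 days and 2.63% at 180 days, and in 30 of them the difference was larger than in miR-192.

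**Figure D3:**
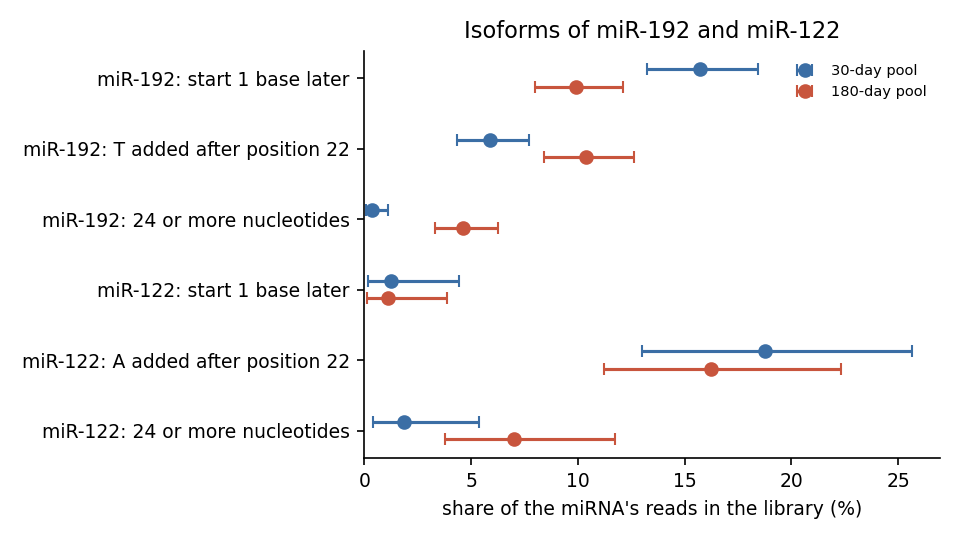
Share of the reads of miR-192 and miR-122 in each library that start 1 base later, that have T (miR-192) or A (miR-122) directly after position 22, or that have 24 or more nucleotides; bars are exact binomial 95% intervals. In miR-192 the later start takes a smaller share in the 180-day library and the added T and the long tags a larger one, while every pair of miR-122 intervals overlaps.

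miR-122 varied at its 3′ end and hardly at its 5′ end. The leading start held 98.1% of its reads in the immature library (94.6 to 99.6%) and 97.8% in the mature one (94.6 to 99.4%). Its 4 leading tags differ only in the last bases. The last of them has T23A against the chicken entry, and addition of adenosine to the 3′ end of miR-122 is known from liver.
miR-122, ending at position 22: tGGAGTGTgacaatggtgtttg
miR-122, ending at position 21: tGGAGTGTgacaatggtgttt
miR-122, ending at position 23: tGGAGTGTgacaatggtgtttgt
miR-122, A after position 22: tGGAGTGTgacaatggtgtttga

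The first was read 49 times in the 30-day and 65 times in the 180-day library (ratio 11.7, 7.96 to 17.3), and the second 27 and 42 (ratio 13.7, 8.27 to 23.2). The third had 32 and 29 (ratio 8.0, 4.67 to 13.7) and the fourth 27 and 20 (ratio 6.54, 3.48 to 12.1). All 4 were higher in the 180-day library, and all 4 intervals overlap. Reads with 1 or more A directly after position 22 took 18.8% at 30 days (30 of 160, 13.0 to 25.7%) and 16.2% at 180 days (30 of 185, 11.2 to 22.3%). The A-ending form was thus present at both ages and did not differ beyond counting error.

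The few miR-194 and miR-215 reads allow little comparison of forms. The miR-194 tag identical to the mouse entry had 4 reads in each library, and the tag with 1 further A had 2 and 4. At 30 days, 3 of the 12 reads came from a 24-nucleotide tag with A10G against the mouse entry, which was not seen at 180 days. Without it the ratio of miR-194 was 8.83 (3.11 to 25.1). It is shown because no other miR-194 tag with more than 1 read has an internal mismatch.
miR-194, 24 nucleotides: tGTAACAGcgactccatgtggaca

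For miR-215, the tag that ends 1 base after the human entry led at 30 days with 18 of 35 reads, and the human entry itself had 11 reads. At 180 days these had 1 and 2 reads, too few to compare forms. A perfect match, with no mismatched or unmatched base, was found for 82.9% of the miR-215 reads at 30 days (29 of 35, 66.4 to 93.4%), against 40.5% of those of miR-192 (37.1 to 44.0%), whose entries are 21 and 23 bases long while its second tag has 22.

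The members were then set beside other miRNAs in a list of 16 drawn up for liver, kidney and gut epithelium, which includes them. The list also holds miRNAs that are not particular to these tissues, such as miR-375, miR-203 and miR-204. Of its 16 names and arms with 20 or more reads, 6 were higher and 2 lower, and the median of their log2 ratios was 0.60. Without the members, 3 of the other 12 were higher (25%, against 29.6% of all 470) and 2 lower (16.7%, against 12.1%), with a median of 0.12 against 0.22 over all 470. The other miRNAs of the list were thus near the background. The higher ones were the 3 members named above, miR-375 of endocrine cells, miR-203 of stratified epithelium and miR-31. miR-375 went from 9 to 62 reads (ratio 60.8, 30.1 to 139), miR-203 from 1252 to 383 reads (ratio 2.70, 2.40 to 3.03) and miR-31 from 278 to 71 reads (ratio 2.26, 1.71 to 2.94). Of these, miR-375 had a ratio above 1 per read of the whole library (7.28), and miR-203 and miR-31 did not (0.323 and 0.270).

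No other name or arm of the list was called higher. miR-148a, abundant in liver, went from 3874 to 1931 RPM, 2.01-fold lower (1.91 to 2.11), and miR-204*, the minor arm of a kidney and eye miRNA, was 9.51-fold lower (3.22 to 46.4). miR-21 had a ratio of 0.983 (0.959 to 1.01), miR-10a of 0.508 (0.406 to 0.630) and miR-204 of 0.798 (0.437 to 1.35). miR-30a and miR-30a-5p had ratios above 1 that missed the 2-fold rule, 1.83 (1.77 to 1.90) and 1.81 (1.76 to 1.86). The arms miR-30a* and miR-148a* had ratios of 1.20 (0.934 to 1.51) and 0.725 (0.406 to 1.21). miR-885-3p, miR-802, miR-205 and each of miR-483, miR-483-3p and miR-483-5p, also in the list, had 5 reads or fewer in each library. At 30 days these miR-483 names had 5, 5 and 2 reads.

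**Figure D4:**
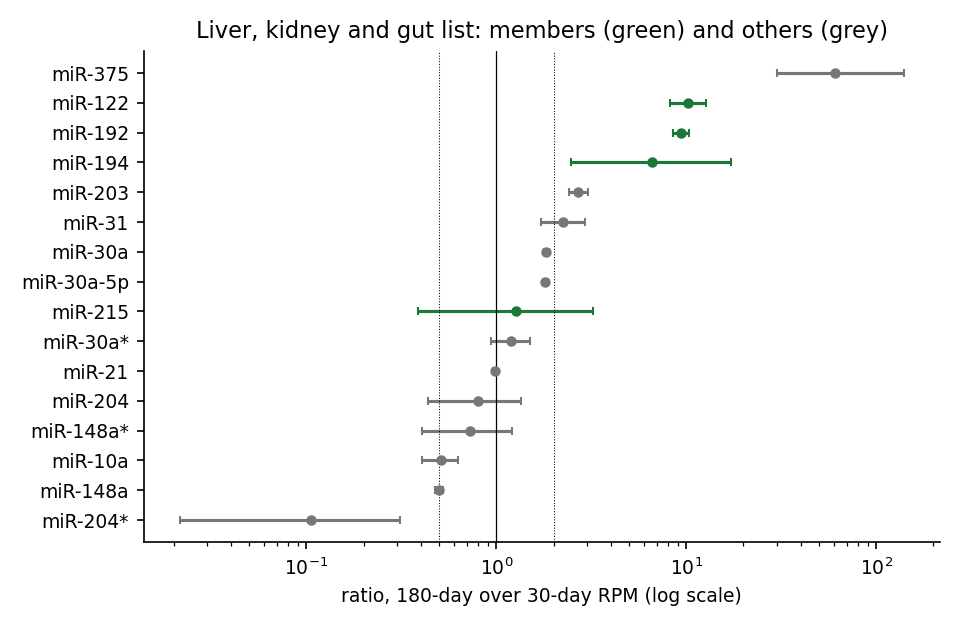
Ratio of the 180-day to the 30-day RPM, on a log axis, for the 16 names and arms of the liver, kidney and gut list with 20 or more reads; bars are exact 95% intervals, dotted lines mark 2-fold, and members are green. miR-122, miR-192 and miR-194 stand below only miR-375, and the ratios of the list run from 0.105 to 60.8.

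Markers of other cell types were read beside the members, and their part in the members' ratios was not tested. Over all 470 names and arms 29.6% were called higher and 12.1% lower, so a few calls in lists this short say little by themselves. The epithelial miR-200 family summed to 73.7 RPM in the immature and 96.2 RPM in the mature library, with 0 of its 4 tested names and arms higher and 1 lower (miR-429, with 44 reads and 0). Red blood cell miR-451, miR-144 and miR-486 summed to 1742 and 3933 RPM, with 1 of 4 higher (miR-451, ratio 2.46, 2.36 to 2.56). miR-144, miR-144* and miR-486-5p had ratios of 0.833, 0.868 and 0.697 and were called neither. White blood cell markers summed to 168 and 194 RPM with 1 of 5 higher, and endothelial miR-126 to 381 and 629 RPM with 0 of 3. The striated muscle markers miR-1, miR-133a, miR-133b and miR-206 summed to 1432 and 6552 RPM, with 2 of 4 tested names and arms higher. Most of this sum was miR-1, with 1305 and 6399 RPM (ratio 4.90). miR-133a* was also higher (ratio 7.36, 24 and 20 reads), while miR-206 (1.02) and miR-133a (1.68) were called neither. Smooth muscle miR-143 and miR-145 summed to 6581 and 17994 RPM with 3 of 4 higher. The germ cell list had 8 of 8 higher, and miR-202 1 of 4. Per read of the whole library, the higher names outside the germ cell list had ratios below 1. These were miR-451 (0.294), miR-223 (0.311), miR-1 (0.587), miR-133a* (0.880), miR-143 (0.330), miR-145 (0.445), miR-145* (0.388) and miR-202* (0.286). In the germ cell list, miR-34c had a ratio of 452 on that scale.

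Likeness of pattern could be measured over 2 libraries only, as the distance between log2 ratios among 298 names and arms of mammalian entries with 100 or more reads. The nearest to miR-122 was miR-182, of the miR-183 cluster, at a distance of 0.03, with 333 and 392 reads and a ratio of 10.4 (8.96 to 12.1). It was followed by miR-192 (0.13) and miR-29c* (0.36), the minor arm of miR-29c, with a ratio of 7.93 (5.37 to 11.7). The nearest to miR-192 were the same names, with miR-122 first (0.13), then miR-182 (0.15) and miR-29c* (0.24).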

How the data were processed

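The authors deposited, for each library, distinct tags matched to known miRNAs with raw read counts, the sequence, 1 miRNA entry from any species, other columns (lengths; matching, mismatched and unmatched bases) and an alignment score. The deposited score served only to find equally good matches. Per the labels' protocols, RNA of 18 to 30 nucleotides was cut from a gel, ligated to adapters, given 15 cycles of PCR and read on a Solexa instrument. No source used here gives the aligner, the miRNA release or the genome build. Reads carry no molecular identifiers. Counts were summed as deposited by name and arm, after dropping species prefix and copy number; miR-122a, miR-194a and miR-194b were pooled with miR-122 and miR-194. Names keep their deposited spelling, so 1 arm can appear under several (miR-30a and miR-30a-5p).

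Ratios have exact conditional (Clopper-Pearson) 95% intervals, shares exact binomial ones and levels exact Poisson ones (scipy 1.17.1). Named were all members, their tags with 5% or more of the reads or leading in a library, list members with 20 or more reads and the 3 nearest ratios. Starts were counted from each miRNA's most read tag. Members and lists were chosen with earlier results of these data known. The ratio and its calls were run on simulated Poisson counts, the error that the intervals assume. That run checks the computation only, since it holds no variation between boars or libraries. Alternatives used edgeR 4.0.16 and DESeq2 1.42.0 for scaling factors only.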

Additional observations from a re-analysis of the deposited data

How the results depend on the processing

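Scaling moved the members' ratios most. With edgeR's TMM factors the ratio was 5.43 for miR-122 and 4.96 for miR-192, and with DESeq2's size factors 5.49 and 5.02; these and miR-194 (3.52 and 3.56) were still called higher. Per read of the whole library, miR-122 had 1.22, miR-192 1.12 and miR-215 0.151, and miR-194 turned below 1 at 0.792. Summing miR-192 with miR-215 gave 8.9997 for both. Splitting equally matching tags gave miR-215 a ratio of 2.12 (1.03 to 4.04), which would be called higher. The reason is 1 tag that scores equally for both, though it has no mismatch to miR-192 and carries its base at position 20. With that split, added after the data were seen, miR-215 held 5.97% of the reads of both at 30 days and 1.41% at 180 days. Apart from these, no alternative for tags, arms or starts took a member across the rule for calls. With arms summed, fewer names were tested. Of the liver, kidney and gut list 1 of 12 was lower, of the germ cell list 4 of 4 were higher, and for miR-202 0 of 1 was higher.

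Of the 470 names and arms, 73 were called higher and 161 lower with TMM factors, and 75 and 161 with size factors. Per read of the whole library the counts were 27 and 396. Only 297 passed the minimum with perfect matches only, and 69 of these were higher and 36 lower. With a minimum of 100 reads 77 of 327 were higher, and with none 251 of 1384, against 139 of 470 in the main setting. With perfect matches only, miR-215 held 8.19% of the miR-192 and miR-215 reads at 30 days, and the later start of miR-192 held 0% in both libraries, since a shifted tag has unmatched bases by construction. No paired analysis was possible because each age has 1 library. Depth limits miR-194 and miR-215, with under 10 reads each at 180 days.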
